A study of Mus musculus with 15 samples.

Results

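Transcripts of 36 genes that act in the cell cycle and in DNA replication were followed in mouse forebrain after hypoxic ischemia, in which the brain is deprived of both oxygen and blood supply, with and without erythropoietin. The genes were chosen by name as the Mcm helicase subunits, replication factors, cyclins, cyclin-dependent kinases and their inhibitors, and mitotic genes. On the arrays 18193 genes had a probe set of their own, and 35 of the 36 were among them, while Ccnb1 is not analysed here. Each gene was read from its brightest probe set, and 33 genes were bright enough to be tested. The remaining pair, Cdc6 and Tyms, lay below the brightness limit, a mean of 5.46 on the log2 scale.

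RNA came from 15 forebrain samples in 3 groups of 5, each measured on an Affymetrix Mouse Genome 430 2.0 array. EPO-HI samples (11 to 15) came from mice given erythropoietin into the peritoneum at 5 U per g, 1 h before hypoxic ischemia. VEH-HI samples (6 to 10) received vehicle 1 h before hypoxic ischemia, and VEH-Sham samples (1 to 5) received vehicle 1 h before sham surgery. Erythropoietin is a cytokine best known for its role in making red blood cells, and it is studied as a protective agent in injured brain; no group received it with sham surgery. The sources used here give no strain, age or sex, and no time from injury to sampling. Nothing states that the samples of a group are separate animals, so the spread behind each p-value is that between samples and may be technical.

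Before a cell copies its DNA, Mcm2 to Mcm7 are loaded onto replication origins as a ring-shaped helicase with the help of Cdc6 and Cdt1. The D-type cyclins with Cdk4 or Cdk6, and then the E-type cyclins with Cdk2, drive cells out of the G1 phase and release E2F transcription factors from the retinoblastoma proteins. Pcna, the sliding clamp, holds the DNA polymerases on their template, and the B-type cyclins with Cdk1 start mitosis. In the forebrain most neurons have left the cell cycle, while neural progenitors, glial precursors, endothelial cells and microglia can divide. Several of these genes also have roles outside division, such as Pcna in DNA repair.

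Promoters of the 4 genes that changed after hypoxic ischemia, and of Cdc20 and Mki67, which are mitotic genes, are shown because replication genes and mitotic genes carry different sequence elements. Each is the 250 bases before the annotated start in RefSeq (GRCm38.p6), written 5′ to 3′ on the strand of the gene. Capitals mark E2F letters, the CCAAT box (CCAAT) and the cell cycle genes homology region, or CHR (TTTGAA), on either strand. In Mcm5 the 2 E2F matches overlap.
Mcm5: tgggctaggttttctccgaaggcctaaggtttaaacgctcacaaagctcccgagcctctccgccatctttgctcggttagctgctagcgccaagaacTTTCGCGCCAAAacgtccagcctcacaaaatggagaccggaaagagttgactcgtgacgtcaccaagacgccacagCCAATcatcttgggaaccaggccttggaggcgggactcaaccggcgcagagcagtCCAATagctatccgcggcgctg
Mcm7: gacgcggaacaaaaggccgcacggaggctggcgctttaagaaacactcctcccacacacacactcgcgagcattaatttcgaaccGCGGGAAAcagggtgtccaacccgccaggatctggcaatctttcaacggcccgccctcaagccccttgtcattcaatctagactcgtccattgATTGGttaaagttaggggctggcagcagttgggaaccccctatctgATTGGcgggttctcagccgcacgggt
Pcna: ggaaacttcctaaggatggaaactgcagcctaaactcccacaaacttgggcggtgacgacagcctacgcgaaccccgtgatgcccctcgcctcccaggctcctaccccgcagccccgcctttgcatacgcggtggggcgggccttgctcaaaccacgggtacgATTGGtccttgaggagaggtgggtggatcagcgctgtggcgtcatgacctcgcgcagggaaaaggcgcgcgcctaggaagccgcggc
Cdk4: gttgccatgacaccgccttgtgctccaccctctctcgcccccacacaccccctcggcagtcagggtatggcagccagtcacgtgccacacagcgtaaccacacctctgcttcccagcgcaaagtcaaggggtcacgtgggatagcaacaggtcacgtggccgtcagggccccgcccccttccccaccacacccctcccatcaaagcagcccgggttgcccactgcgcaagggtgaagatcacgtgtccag
Cdc20: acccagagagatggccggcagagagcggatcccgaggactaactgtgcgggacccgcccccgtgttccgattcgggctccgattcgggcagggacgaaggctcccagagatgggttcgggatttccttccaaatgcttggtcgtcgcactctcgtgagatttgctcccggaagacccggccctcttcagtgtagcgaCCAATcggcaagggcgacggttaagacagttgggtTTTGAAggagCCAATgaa
Mki67: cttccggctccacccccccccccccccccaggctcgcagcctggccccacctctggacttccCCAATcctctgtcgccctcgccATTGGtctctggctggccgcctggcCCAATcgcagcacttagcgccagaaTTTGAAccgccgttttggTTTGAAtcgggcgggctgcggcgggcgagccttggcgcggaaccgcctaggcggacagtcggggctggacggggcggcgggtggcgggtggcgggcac
Mcm5 lies at chr8:75109259-75109508 on the plus strand and Mcm7 at chr5:138171884-138172133 on the minus strand. Pcna lies at chr2:132253181-132253430 on the minus strand, and Cdk4 at chr10:127063285-127063534 on the plus strand. Cdc20 lies at chr4:118437344-118437593 and Mki67 at chr7:135716380-135716629, both on the minus strand.

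RefSeq promoters were found for 30 of the 36 genes, each read from 250 bases before to 50 after the start. The E2F letters searched were TTTCCCGC, TTTGGCGC, TTTCGCGC and TTTGCCGC, on either strand. They occurred in 7 of 30 promoters (23.3%), against 2.3% of all 27025 promoters of that length. In the licensing group Mcm3, Mcm5, Mcm6, Mcm7 and Cdc6 held a match and Mcm2 did not, and the other two of the 7 were Cdk1 and Cdk2. None of 9 promoters of the mitosis group held one. The CHR letters stood in 7 of 9 mitosis promoters (77.8%), against 18.1% of all promoters, and in 1 of 6 licensing promoters, that of Mcm2. CCAAT stood in 21 of the 30 promoters (70.0%), against 37.9% of all promoters. Pcna and Cdk4 held none of the E2F or CHR letters in this window. A match describes the letters and is not a measured binding site.

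The arrays differed in a way that the labels do not record. All were scaled to the same trimmed mean, but the median intensity was 39.3 to 42.6 on EPO-HI arrays, 40.9 to 44.5 on VEH-HI arrays and 39.97 on VEH-Sham 5, against 55.4 to 58.0 on VEH-Sham 1 to 4. The ratio of the 3' to the 5' Gapdh control probe sets was 0.716 to 0.756 on those 11 arrays and 0.634 to 0.719 on VEH-Sham 1 to 4. The Gapdh ranges met, as VEH-Sham 3 read 0.719 and EPO-HI 11 read 0.716. The same ratio for Actb was 1.241 to 1.504 on the 11 arrays and 1.283 to 1.399 on VEH-Sham 1 to 4. Among these measures the median intensity alone divided the arrays. Because of the division, differences from VEH-Sham are set beside the difference from VEH-Sham 5 alone, the single sham array that resembles the hypoxic ischemia arrays in this respect. The EPO-HI and VEH-HI arrays lie on the same side of this division. As a check of the tissue, all 8 measured forebrain markers passed the brightness limit, among them Neurod6, Penk and Lhx2. Of 9 measured midbrain, cerebellum and hindbrain markers 5 passed, and En1, Hoxb5, Gabra6 and Gata3 did not. Values below are log2(intensity + 16), and differences are log2 differences from limma with their standard error (SE).

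**Figure D1:**
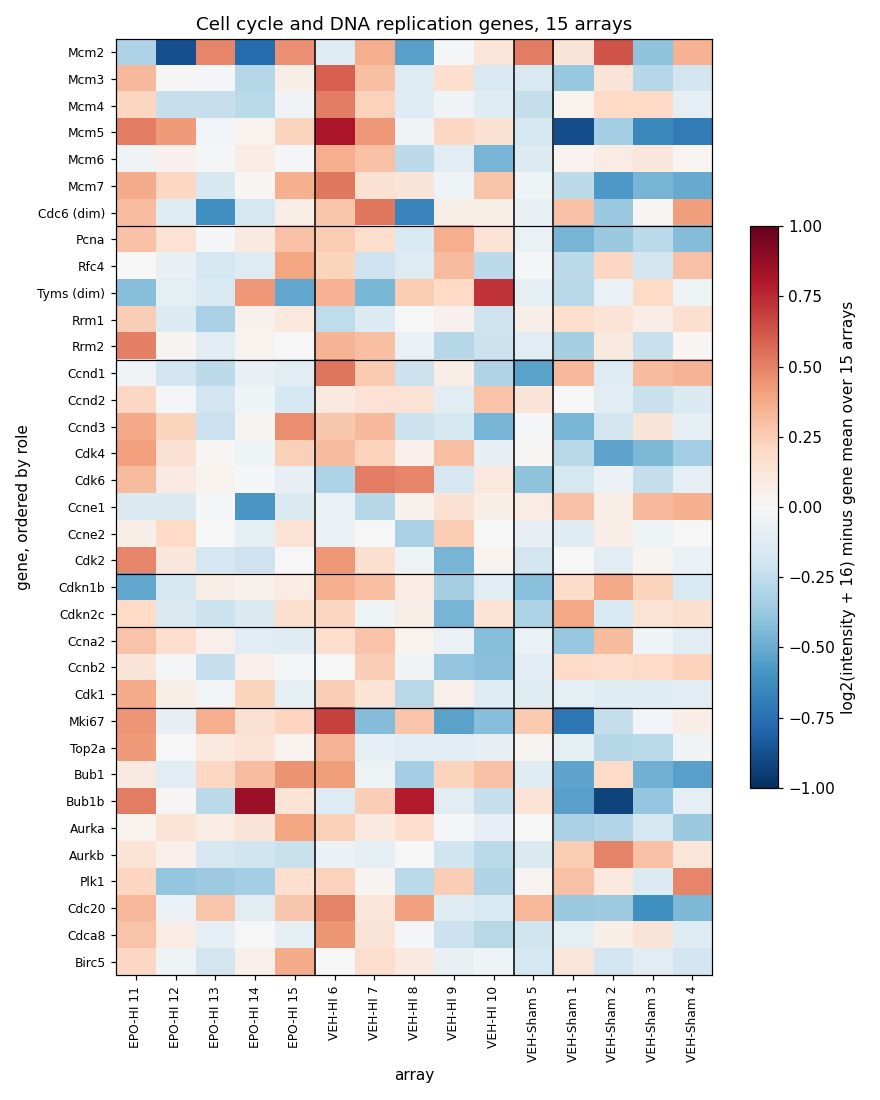
Colour shows log2(intensity + 16) minus the gene's mean over 15 arrays for 35 genes (rows, ordered by role) on each array (columns, EPO-HI, VEH-HI, VEH-Sham 5, then VEH-Sham 1 to 4). Mcm5, Mcm7, Pcna and Cdk4 are low on VEH-Sham 1 to 4, and many genes are high on EPO-HI 11 and VEH-HI 6.

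After hypoxic ischemia with vehicle, 4 of the 33 tested genes rose against sham and none fell, at an adjusted p under 0.05 (limma). They were Mcm5 and Mcm7, subunits of the replicative helicase, Pcna, the sliding clamp, and Cdk4, the G1 kinase. The share of 12.1% stands beside 11.9% of all 13168 tested genes called higher, and the share lower, 0 of 33, beside 11.5% of all genes called lower (23.4% in either direction). The median difference of the 33 genes was 0.07, against -0.02 over all genes, and 24 of 33 lay above 0. Relative to VEH-Sham 5 alone the median was 0.11, against 0.003 over all genes, and 22 of 33 lay above 0. At an unadjusted p under 0.05 there were 8 of 33 genes (24.2%), a smaller share than the 38.2% of all tested genes. With the division of the arrays as a block, or among the 11 similar arrays alone, no gene of the 33 passed. In both of these fits 1 gene, Ccnd1, had an unadjusted p under 0.05 (3.03% of the 33), against 6.06% and 5.61% of all genes. The shares of all genes that passed were 0.00759% and 0.0228%. In bulk tissue, more cells of a type and more RNA per cell cannot be told apart.

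Mcm5 read 8.54, 8.16, 7.69, 7.93 and 7.88 on the VEH-HI arrays, against 6.84, 7.39, 7.08, 7.03 and 7.55 on the VEH-Sham arrays. Every VEH-HI array was above every VEH-Sham array, and the highest sham value was VEH-Sham 5. The means were 8.04 ± 0.32 in VEH-HI and 7.18 ± 0.28 in VEH-Sham (SD, n = 5 each), a difference of 0.86 (SE 0.16, limma adjusted p 0.00165). That is a 1.81-fold higher level on this scale. Against VEH-Sham 5 alone the difference was 0.49. Both tested probe sets of Mcm5 passed, but the other read 0.53 against the group and 0.06 against VEH-Sham 5. When all probe sets of a gene were averaged, Mcm5 no longer passed (limma adjusted p 0.211). That average takes in a probe set of Mcm5 too dim to test, which differed by -0.73 from the group and by -0.60 from VEH-Sham 5.

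Mcm7 read 9.14, 8.76, 8.74, 8.56 and 8.90 in VEH-HI, against 8.35, 8.04, 8.15, 8.11 and 8.57 in VEH-Sham. All VEH-HI arrays exceeded VEH-Sham 1 to 4, and VEH-HI 9 was just below VEH-Sham 5. The difference was 0.58 (SE 0.13, limma adjusted p 0.00471), and 0.25 against VEH-Sham 5. The 4 tested probe sets of Mcm7 disagreed, at 0.58, 0.53, 0.07 and -0.26, and the higher pair passed. Averaged over its probe sets, Mcm7 had a limma adjusted p of 0.129.

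Pcna was read by 1 tested probe set and had values of 10.91, 10.83, 10.50, 11.02 and 10.80 in VEH-HI, against 10.19, 10.28, 10.38, 10.22 and 10.59 in VEH-Sham. Here VEH-HI 8 alone was below VEH-Sham 5, and all VEH-HI arrays exceeded the other sham arrays. The difference was 0.48 (SE 0.10, limma adjusted p 0.00362), and 0.22 against VEH-Sham 5.

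Cdk4 read 9.08, 8.99, 8.81, 9.06 and 8.68 in VEH-HI, against 8.48, 8.23, 8.31, 8.42 and 8.77 in VEH-Sham. The groups overlapped only through VEH-Sham 5, which exceeded VEH-HI 10. The difference was 0.48 (SE 0.12, limma adjusted p 0.00692), and 0.15 against VEH-Sham 5. All 3 tested probe sets of Cdk4 passed, with differences of 0.48, 0.42 and 0.81, and each lay above VEH-Sham 5, by 0.15, 0.28 and 0.35.

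**Figure D2:**
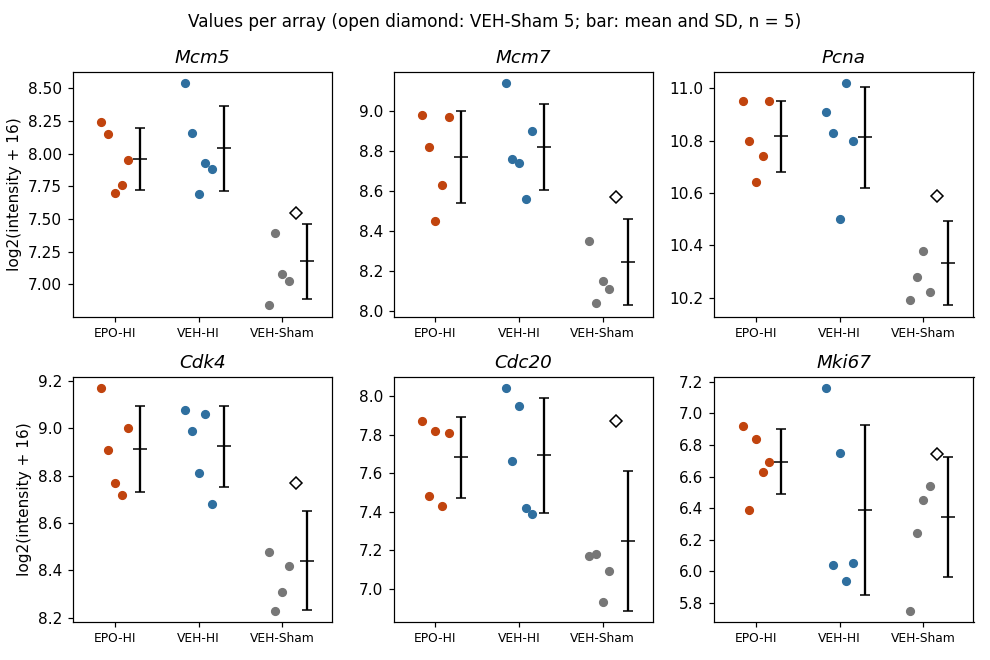
Each panel plots log2(intensity + 16) of 1 gene on every array (points, with VEH-Sham 5 as an open diamond) and the group mean with its SD (n = 5). VEH-Sham 5 is the highest sham array in all 6 panels, and in every panel but that of Mcm5 it lies within the range of the VEH-HI arrays.

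The other licensing genes did not pass in their brightest probe sets. Mcm3 differed by 0.33 (adjusted p 0.116, limma) and by 0.31 against VEH-Sham 5, and 1 of its 3 tested probe sets passed, at 0.86 and at 0.88 against VEH-Sham 5. Mcm4 and Mcm6 differed by 0.07 and -0.05 in their brightest probe sets, and by 0.33 and 0.11 against VEH-Sham 5. The other probe set of Mcm6 passed at 0.38 (limma adjusted p 0.0371), with 0.25 against VEH-Sham 5. Mcm2 had probe sets of opposite sign, -0.29 and 0.39 (-0.56 and 0.25 against VEH-Sham 5), neither past the threshold. Cdc6, which loads the helicase, averaged 5.31 ± 0.44 in VEH-HI and 5.32 ± 0.31 in VEH-Sham (SD, n = 5 each) and was too dim to test.

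Among the replication factors beside Pcna, Rfc4, a subunit of the complex that loads the clamp, differed by -0.02, and by 0.01 against VEH-Sham 5. Rrm1 and Rrm2, the large and small subunits of ribonucleotide reductase, which makes deoxynucleotides, differed by -0.23 (SE 0.11) and 0.12 (SE 0.14), and by -0.17 and 0.13 against VEH-Sham 5. Rrm1 was lower on every VEH-HI array (7.51 to 7.81) than on every VEH-Sham array (7.82 to 7.94), yet its adjusted p was 0.13 (limma). Mcm5 and Rrm1 were the only 2 of the 33 genes whose VEH-HI and VEH-Sham arrays did not overlap, beside 8.68% of all tested genes. Tyms, thymidylate synthase, was dim, with 4.82 ± 0.42 in VEH-HI and 4.55 ± 0.17 in VEH-Sham (SD, n = 5 each).

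Cdk4 stood alone among the 8 G1 cyclins and kinases. Its partner Ccnd1, cyclin D1, depended on the probe set and on the sham arrays. The brightest probe set of Ccnd1 read 9.28, 9.00, 8.53, 8.81 and 8.44 in VEH-HI, against 9.07, 8.61, 9.06, 9.08 and 8.21 in VEH-Sham, a difference of 0.01 (SE 0.16). VEH-Sham 5 was the lowest array of all 15, and against it the VEH-HI mean was 0.60 higher. With the block this gave an unadjusted p of 0.0178 and an adjusted p of 0.593 (limma). The other 2 probe sets of Ccnd1 passed at 0.47 and 0.36 (limma adjusted p 0.0102 and 0.0271), with differences of 0.42 and 0.44 against VEH-Sham 5.

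Cdk6, the second kinase of the D-type cyclins, differed by 0.32 (adjusted p 0.145, limma) and by 0.54 against VEH-Sham 5. The other tested probe set of Cdk6 had the opposite sign, at -0.24 (limma adjusted p 0.216) and -0.45 against VEH-Sham 5. Cyclins Ccnd2 and Ccnd3 differed by 0.18 and 0.07, the E-type cyclins Ccne1 and Ccne2 by -0.24 and 0.01, and their kinase Cdk2 by 0.09. Against VEH-Sham 5 these 5 genes differed by -0.02, -0.04, -0.10, 0.05 and 0.20, in the same order. The CDK inhibitors Cdkn1b and Cdkn2c differed by 0.01 and -0.07. Relative to VEH-Sham 5, those 2 inhibitors were 0.48 and 0.29 higher in their brightest probe sets. For Cdkn1b the other tested probe set went the other way, at -0.18 (limma adjusted p 0.617) and -0.15 against VEH-Sham 5. Neither cyclin A2 (Ccna2, 0.06), cyclin B2 (Ccnb2, -0.26) nor their kinase Cdk1 (0.12) passed, and against VEH-Sham 5 they differed by 0.07, -0.02 and 0.13.

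None of the 10 genes of the mitosis and chromosome group passed. Their median difference was 0.13, with 8 of 10 above 0 against the VEH-Sham group and 5 of 10 above 0 against VEH-Sham 5. Cdc20, the activator of the anaphase-promoting complex, read 8.04, 7.66, 7.95, 7.42 and 7.39 in VEH-HI, against 7.17, 7.18, 6.93, 7.09 and 7.87 in VEH-Sham. All VEH-HI arrays of Cdc20 lay above VEH-Sham 1 to 4, but VEH-Sham 5 exceeded 3 of the 5. Its difference was 0.45 (SE 0.17, limma adjusted p 0.0561), and -0.18 against VEH-Sham 5. The other tested probe set of Cdc20 differed by 0.40 (limma adjusted p 0.0535), and by 0.21 against VEH-Sham 5, so the change of sign was seen in the brightest probe set only.

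Mki67, the proliferation marker Ki-67, read 7.16, 6.04, 6.75, 5.94 and 6.05 in VEH-HI, against 5.75, 6.24, 6.45, 6.54 and 6.74 in VEH-Sham. The VEH-HI arrays were split, with 6 and 8 high and the others low, and the groups overlapped. Its difference was 0.04 (SE 0.22, 95% interval -0.41 to 0.50), and -0.36 against VEH-Sham 5. Top2a, which untangles DNA, differed by 0.12 (SE 0.12, 95% interval -0.13 to 0.37), and by -0.03 against VEH-Sham 5. The other tested probe set of Top2a differed by -0.53 (limma adjusted p 0.0867), and by 0.10 against VEH-Sham 5. Aurka, a centrosome kinase, differed by 0.32 (limma adjusted p 0.0978), and Aurkb, the kinase of the chromosomal passenger complex, by -0.33 (limma adjusted p 0.136). Against VEH-Sham 5 these kinases differed by 0.08 and 0.02. In its other tested probe set Aurkb differed by -0.01 (limma adjusted p 0.986), and by 0.20 against VEH-Sham 5. The checkpoint kinases Bub1 and Bub1b differed by 0.40 and 0.48 with wide errors (SE 0.20 and 0.25), and by 0.23 and -0.02 against VEH-Sham 5. The mitotic kinase Plk1 differed by -0.17, and Cdca8 and Birc5, partners of Aurkb in its complex, by 0.06 and 0.14. Against VEH-Sham 5 these 3 genes differed by -0.04, 0.22 and 0.21.

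**Figure D3:**
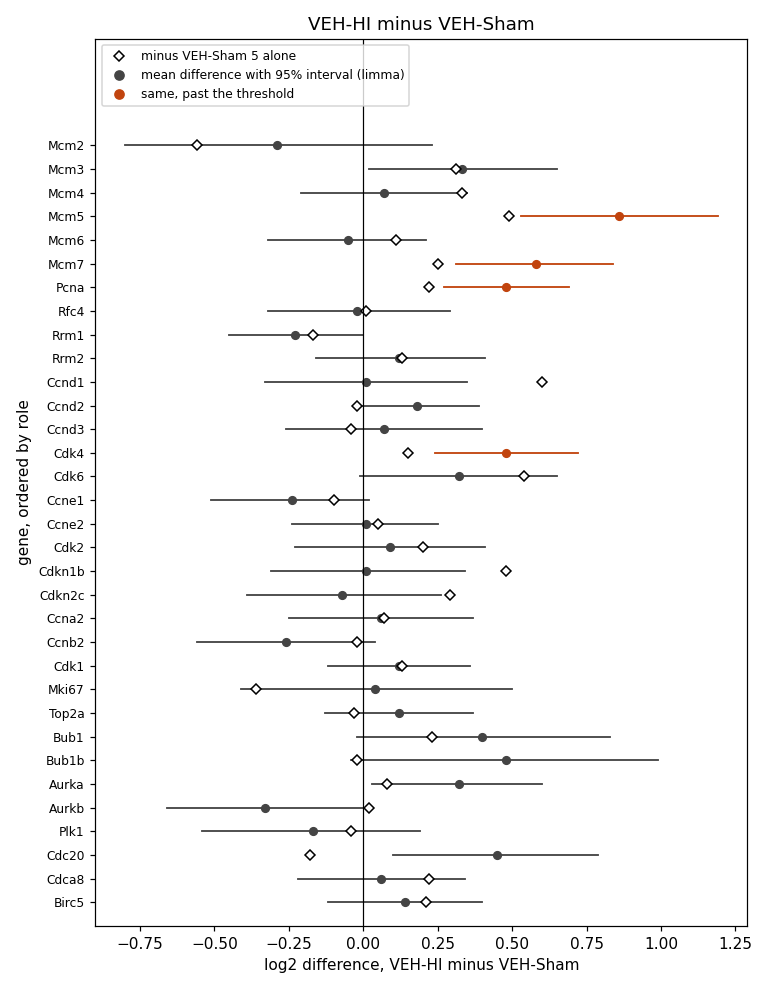
Points show the log2 difference, VEH-HI minus VEH-Sham, of the 33 tested genes with its 95% interval from limma, and open diamonds the VEH-HI mean minus VEH-Sham 5 alone. Mcm5, Mcm7, Pcna and Cdk4 are past the threshold (coloured), and their diamonds lie nearer to 0, at 0.49, 0.25, 0.22 and 0.15.

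Erythropoietin before hypoxic ischemia, compared with vehicle before hypoxic ischemia, gave no called gene among the 33 by limma, where 0% of all 13168 tested genes were called. No gene of the 33 had an unadjusted p under 0.05, against 464 of all 13168 tested genes (3.52%), and the smallest was 0.128, for Ccnd2. The EPO-HI and VEH-HI arrays overlapped for all 33, and only 0.729% of all tested genes had no overlap there. In the brightest probe sets, differences ran from -0.20 (Mcm4 and Ccnd1) to 0.31 (Mki67). Their median was 0.02 against -0.005 over all genes, and 19 of 33 were above 0. Among the other tested probe sets, differences ran from -0.34 (Aurkb) to 0.55 (Cdca8), and none passed. The 95% intervals of the 33 differences lay between -0.67 and 0.76. Such intervals do not show that the groups were alike.

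The 4 genes that rose in VEH-HI against VEH-Sham did not pass between EPO-HI and VEH-HI, and their arrays overlapped. Mcm5 read 8.24, 8.15, 7.70, 7.76 and 7.95 in EPO-HI, with a difference from VEH-HI of -0.08 (95% interval -0.41 to 0.25). Mcm7 read 8.98, 8.82, 8.45, 8.63 and 8.97 in EPO-HI, with a difference of -0.05 (95% interval -0.32 to 0.21). For Pcna the EPO-HI arrays read 10.95, 10.80, 10.64, 10.74 and 10.95, and the difference was 0.00 (95% interval -0.21 to 0.22). For Cdk4 they read 9.17, 8.91, 8.77, 8.72 and 9.00, and the difference was -0.01 (95% interval -0.25 to 0.23).

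By role and in the brightest probe sets, 1 of 6 licensing genes lay above 0 in this comparison (median -0.11), against 4 of 4 replication genes (median 0.05) and 8 of 10 mitosis genes (median 0.06). These signs depended in part on the probe set. Opposite signs came from the other tested probe set of Mcm2 (0.05), Mcm6 (-0.03), Rfc4 (-0.12) and Aurkb (-0.34), and that of Mcm4 read 0.00. Those of Mcm5, Rrm1, Rrm2, Top2a, Cdc20 and Cdca8 kept the sign, and those of Mcm3 and Mcm7 were mixed. Mki67 read 6.92, 6.39, 6.84, 6.63 and 6.69 in EPO-HI, within the wider spread of VEH-HI, and its difference was 0.31 (SE 0.22, 95% interval -0.15 to 0.76). Cyclin Ccnd3 differed by 0.23 (95% interval -0.10 to 0.56) and Ccnd1 by -0.20 (95% interval -0.54 to 0.13). The spread within a group differed too. For Mcm6 the SD was 0.05 in EPO-HI and 0.36 in VEH-HI, and for Ccnd1 it was 0.09 in EPO-HI and 0.34 in VEH-HI (n = 5 each). These spreads were not tested.

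**Figure D4:**
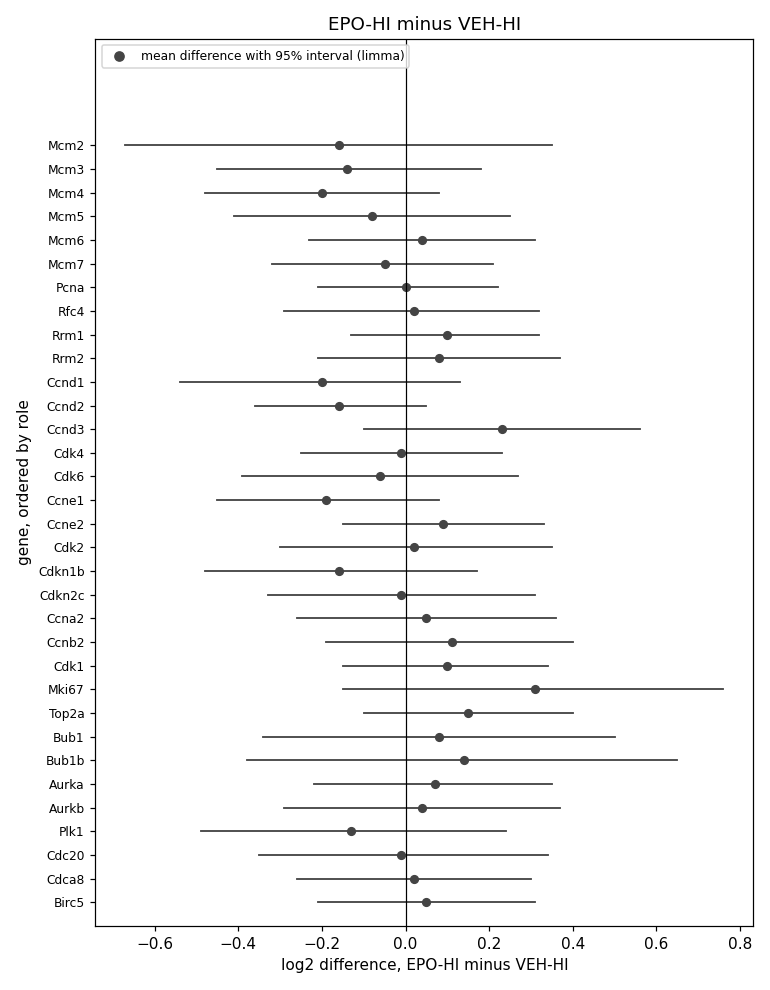
Points show the log2 difference, EPO-HI minus VEH-HI, of the 33 tested genes (rows, ordered by role) with its 95% interval from limma. Every interval includes 0, and the widest belong to Mcm2, Bub1b and Mki67.

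Against sham, EPO-HI had 4 of 33 genes higher (12.1%) and 1 lower (3.0%), beside 8.86% of all genes called higher and 9.46% called lower. In either direction the share was 15.2%, beside 18.3% of all genes. This comparison uses the same VEH-Sham arrays as VEH-HI against VEH-Sham, so the pair are not independent. Mcm5 differed by 0.78 (SE 0.16, limma adjusted p 0.00435) and by 0.41 against VEH-Sham 5. Mcm7, Pcna and Cdk4 differed by 0.52, 0.48 and 0.47, and by 0.20, 0.22 and 0.14 against VEH-Sham 5. At an unadjusted p under 0.05 there were 10 of 33 genes (30.3%), a smaller share than the 34.6% of all tested genes. None of the 33 passed with the array division as a block or among the 11 similar arrays, where 0.00759% and 0.0152% of all genes passed.

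Ccne1, cyclin E1, was the gene that fell. It read 6.92, 6.92, 7.05, 6.48 and 6.92 in EPO-HI, against 7.36, 7.13, 7.39, 7.42 and 7.14 in VEH-Sham. Every EPO-HI array was below every VEH-Sham array, and EPO-HI 14 lay apart from the other 4. The difference was -0.43 (SE 0.13, limma adjusted p 0.0246) and -0.28 against VEH-Sham 5, and the VEH-HI difference was -0.24 (limma adjusted p 0.164). Beside the fits with the array division, the call was lost under 6 of 25 alternatives, which were both rescalings and leaving out VEH-Sham 1, VEH-Sham 3, VEH-Sham 4 or EPO-HI 14, and adjusted p ran from 0.0104 to 0.547 (limma). The other tested probe set of Ccne1 differed by -0.46 (limma adjusted p 0.111) and by 0.06 against VEH-Sham 5.

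Aurka was the remaining gene without overlap between EPO-HI and VEH-Sham, beside Mcm5, Pcna and Ccne1. These are 4 of the 33 genes, beside 7.42% of all tested genes without overlap. Aurka read 6.18, 6.28, 6.22, 6.27 and 6.54 in EPO-HI, against 5.82, 5.85, 5.97, 5.77 and 6.14 in VEH-Sham. The highest sham value of Aurka was again VEH-Sham 5. The difference was 0.38 (limma adjusted p 0.0546), and 0.15 against VEH-Sham 5. The mitosis group had a median of 0.31 against the VEH-Sham group and 0.12 against VEH-Sham 5. Bub1b, Bub1 and Top2a differed by 0.61, 0.49 and 0.27, with limma adjusted p-values of 0.0872, 0.0965 and 0.112, and by 0.11, 0.31 and 0.12 against VEH-Sham 5. The other tested probe set of Top2a differed by -0.41 (limma adjusted p 0.19), and by 0.22 against VEH-Sham 5. For Cdk1 all VEH-Sham arrays read between 7.20 and 7.23, while EPO-HI ranged from 7.22 to 7.69, a difference of 0.22 (limma adjusted p 0.197), and 0.23 against VEH-Sham 5.

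The count depended on which probe sets were read. Of the 64 tested probe sets of the 33 genes, 13 were higher in VEH-HI than in VEH-Sham (20.3%) and 0 lower, beside 9.85% of all tested probe sets called higher and 13% called lower (22.8% in either direction). The 13 belonged to 8 genes, which adds Mcm3, Mcm6, Ccnd1 and Rfc4 to Mcm5, Mcm7, Pcna and Cdk4. For EPO-HI against VEH-Sham, 10 were higher (15.6%) and 1 lower, beside 7.42% and 10.9% of all tested probe sets. For EPO-HI against VEH-HI it was 0 in both directions. Probe sets of 1 gene share their RNA and are not independent. Of the brightest probe sets, 8 end in _x_at and 4 in _s_at, kinds whose probes can match other transcripts, and among the called genes those of Mcm5, Cdk4 and Ccne1 are _x_at and that of Mcm7 is _s_at.

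Other genes of the same pathways were called in both directions. The counts of each list below stand beside 11.9% of all tested genes called higher and 11.5% called lower in VEH-HI against VEH-Sham. In the licensing and firing list, 5 of 19 tested genes rose in VEH-HI against VEH-Sham and 3 fell. Cdt1, which loads the helicase with Cdc6, rose by 0.74 (SE 0.16, limma adjusted p 0.00472) and was 0.89 above VEH-Sham 5. Gins3, a subunit of the active helicase, differed by -0.92 (limma adjusted p 0.00284), but only by -0.10 against VEH-Sham 5. Likewise Orc1, of the origin recognition complex, differed by -0.82 and by -0.26 against VEH-Sham 5, and Orc5 by 0.48 and -0.10.

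Of 27 polymerase, clamp loading and ligation genes 2 rose and none fell. They were Rpa1, of the protein that coats single-stranded DNA (0.39, and 0.22 against VEH-Sham 5), and the clamp loader Rfc2 (0.40, and 0.01 against VEH-Sham 5). In the E2F, RB and MuvB list, 2 of 17 rose and 2 fell (E2f4 and Lin9). The risers Tfdp1 and Lin37 differed by 0.45 and 0.51, but by 0.03 and 0.00 against VEH-Sham 5. E2f4, mostly a repressor in resting cells, differed by -0.90 (limma adjusted p 0.00267) and by -0.48 against VEH-Sham 5. Lin9, a MuvB subunit, differed by -1.11 and by -0.23.

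Among 22 other CDK regulators 3 rose and none fell. Cdkn1a, the p53 target p21 that inhibits CDKs and binds Pcna, rose by 0.63 (SE 0.11, limma adjusted p 0.00116) and was 0.39 above VEH-Sham 5. Cks2, a small CDK-binding protein, and the inhibitor Cdkn1c rose by 0.52 and 0.40, and stood 0.21 and 0.13 above VEH-Sham 5. In the spindle and cytokinesis list, 2 of 39 rose and 2 fell. Kif23, a kinesin of cytokinesis, rose by 1.31 (SE 0.22, limma adjusted p 0.000833) and was 0.63 above VEH-Sham 5, while Bub3, a spindle checkpoint protein, rose by 0.46 and was 0.15 above it. The genes that fell, Nusap1 and Racgap1, differed by -0.43 and -0.37 from the VEH-Sham group, and by -0.17 and -0.06 from VEH-Sham 5. In EPO-HI against VEH-HI, 0 genes of these 5 lists passed.

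Markers of several cell types moved in the same comparison, and their part in the results was not tested. Of 12 tested microglia and macrophage markers 9 rose and 1 fell in VEH-HI against VEH-Sham, with a median of 0.56 and of 0.59 against VEH-Sham 5. The summed intensity of the 14 measured markers was 3507 to 4716 in EPO-HI, 4266 to 6035 in VEH-HI and 2920 to 3616 in VEH-Sham. The markers Trem2 and Itgam lay below the brightness limit. Astrocyte markers rose in 4 of 9, with a median of 0.40 and of 0.14 against VEH-Sham 5. Endothelial markers rose in 2 and fell in 1 of 8, with medians of 0.23 and 0.03, and leukocyte markers rose in 2 of 7, with medians of 0.44 and 0.64. Of 13 progenitor and young neuron markers 2 rose, with a median of -0.03 and of -0.15 against VEH-Sham 5. The brightest 3 of them were Vim, which astrocytes also express (1.23, and 1.27 against VEH-Sham 5), Tubb3 (-0.37 and -0.69) and Dcx (-0.31 and -0.62), and of these Vim passed. Of 7 oligodendrocyte precursor markers and 4 erythroid markers 0 passed in either direction, and 3 of 10 neuronal markers fell, with a median of -0.19 and of -0.31 against VEH-Sham 5.

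Over the 10 hypoxic ischemia arrays, each of the 33 genes was set against the mean log2 level of the microglia markers. The arrays share their scaling, and both measures come from the same RNA. Of 33 correlations 30 were above 0 and 5 had an unadjusted Pearson p under 0.05, but none passed after adjustment over 33. These correlations were not run over all tested genes, so whether such counts are unusual is not known. Mcm3 had r = 0.77 (permutation p 0.00978, adjusted 0.163) and rho = 0.70 (permutation p 0.0309, adjusted 0.286), and r = 0.74 without EPO-HI 13 and EPO-HI 14. Cdk4 had r = 0.76 (permutation p 0.00986, adjusted 0.163) and rho = 0.70 (permutation p 0.0302, adjusted 0.286), and r = 0.63 without those arrays. Mki67 and Top2a had r = 0.03 and 0.06 (permutation p 0.941 and 0.868), and 0.41 and 0.35 without EPO-HI 13 and EPO-HI 14. With each group centred on its own mean their r was 0.25 and 0.32, against 0.75 for Mcm3 and 0.83 for Cdk4. Genes of the same role differed in r, and a relation of r to role was not tested. The other genes with an unadjusted p under 0.05 were Mcm5, Mcm4 and the mitotic kinase Plk1. Their r was 0.72, 0.70 and 0.70 (permutation p 0.0191, 0.026 and 0.0225, each adjusted 0.172). The replication genes Mcm2 and Rrm1 had r = 0.07 and 0.05 (permutation p 0.831 and 0.9).

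Partner genes were set against each other over the same 10 arrays in 8 pairs, and none passed after adjustment. Mki67 and Top2a had r = 0.77 (permutation p 0.00807, adjusted 0.0646) and rho = 0.76 (permutation p 0.0157, adjusted 0.0684). Without VEH-HI 7 and VEH-HI 9 their r was 0.71. Ccnd1 and Cdk4 had r = 0.63 (permutation p 0.0477, adjusted 0.139) and rho = 0.75 (permutation p 0.0171, adjusted 0.0684). Mcm2 and Mcm7, of the same helicase, had r = -0.06 (permutation p 0.879), and Aurkb and Birc5, of the same complex, had r = 0.14 (permutation p 0.695). Mcm5 and Mcm6, also of that helicase, had r = 0.63 (permutation p 0.052, adjusted 0.139), and 0.47 without EPO-HI 11 and VEH-HI 6. Ccna2 and Cdk1 had r = 0.53 (permutation p 0.118) and rho = 0.67 (permutation p 0.0398, adjusted 0.106). Rrm1 and Rrm2 had r = 0.24 (permutation p 0.506), and Ccne1 and Cdk2 r = -0.13 (permutation p 0.72).

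A pair of arrays stood apart for these genes. EPO-HI 11 was the highest of its group for 21 of 33 genes (63.6%), against 21.0% of all tested genes. VEH-HI 6 was the highest of its group for 18 of 33 (54.5%), against 24.6% of all tested genes. Over the 33 genes the median deviation from the group mean was 0.22 on EPO-HI 11 and 0.24 on VEH-HI 6. Of 124 tested genes of the 5 pathway lists, 28 were highest on EPO-HI 11 (22.6%), fewer than on EPO-HI 15 (46, or 37.1%), and 46 were highest on VEH-HI 6 (37.1%). VEH-HI 6 was also highest for 11 of 12 microglia markers, and EPO-HI 11 for 6 of 12. Markers of some other cell types were also highest on these arrays, and others were not. VEH-HI 6 was highest for 6 of 8 endothelial, 5 of 9 astrocyte and 4 of 7 oligodendrocyte precursor markers. It was highest for only 1 of 10 neuronal, 1 of 8 forebrain and 1 of 7 leukocyte markers. EPO-HI 11 was highest for 6 of 13 progenitor markers, and EPO-HI 13 for 5 of 13. For astrocyte markers EPO-HI 11 and EPO-HI 15 were each highest for 4 of 9. The part of these cell types was not tested. VEH-HI 6 and EPO-HI 11 were picked out after their values were seen. Leaving both out kept the counts at 4 higher in VEH-HI against VEH-Sham, 0 in EPO-HI against VEH-HI, and 4 higher and 1 lower in EPO-HI against VEH-Sham. Of all tested genes, 8.32% were then called higher and 8.07% lower in VEH-HI against VEH-Sham. The shares were 0% in EPO-HI against VEH-HI, and 5.85% higher and 6.01% lower in EPO-HI against VEH-Sham.

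**Figure D5:**
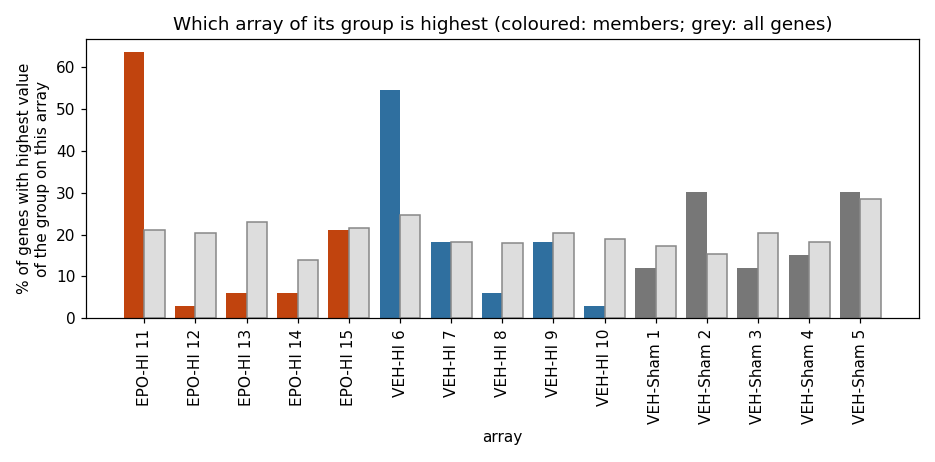
Bars show the percentage of genes whose highest value in their group lies on each array, for the 33 cell cycle and replication genes (coloured) and for all tested genes (light grey). EPO-HI 11 reaches 63.6% and VEH-HI 6 reaches 54.5% of the 33 genes.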

How the data were processed

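Mouse forebrain total RNA was measured on 15 arrays in 3 groups of 5. The authors deposited 1 linear intensity per probe set and array, and the values show that each array had been scaled to a trimmed mean (2% at each end) of 150.0. The method that summarised the probes was not given in the sources used here. All 15 value columns matched a sample, and 0 did not. Of 45101 probe sets 64 controls were left out. Gene names came from the platform annotation, in which 34945 probe sets had 1 symbol, 932 several and 9160 were not listed. Of those with 1 symbol, 34741 matched the mouse gene table (GRCm38.p6) by gene number, and 0 symbols changed.

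Intensities were converted to log2(intensity + 16), which understates changes of dim genes. The brightest 60% of probe sets by overall mean (27022, mean log2 of at least 5.46) entered 1 model with 3 group means over all 15 arrays (limma 3.58.1, lmFit and eBayes with trend, R 4.3.3). Tests were two-sided, with Benjamini-Hochberg adjustment over all tested probe sets and a threshold of 0.05. Each gene was represented by its brightest probe set (13168 tested genes). The number of arrays limits the precision. The code was tested on simulated data. Permutation tests used 100000 resamples (Python 3.11.15), and figures were drawn with matplotlib 3.10.9.

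The 36 genes and all lists were chosen with earlier results of these data known. All 36 were named, with at most 5 called genes of each pathway list by p and at most 3 of each marker list by brightness. Markers below the limit were named for that reason. Arrays were divided where their sorted medians lay farthest apart, by 0.24 (log2). Alternatives covered the scaling, pseudocount, filter, probe set rule, model, array division and each left-out array.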

Additional observations from a re-analysis of the deposited data

Results flagged for a closer look

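Of 105 combinations of a gene and a group of 5 arrays, 7 had 1 array whose gap to its nearest neighbour took more than 0.71 of the range of the group. Chance gives about 1 in 20 such groups. In EPO-HI, Rrm2 was high on EPO-HI 11 at 8.48 (nearest 8.01), Ccne1 was low on EPO-HI 14 at 6.48 (nearest 6.92), and Aurka was high on EPO-HI 15 at 6.54 (nearest 6.28). In VEH-HI, Top2a was high on VEH-HI 6 at 7.59 (nearest 7.17). In VEH-Sham, Cdc20 was high on VEH-Sham 5 at 7.87 (nearest 7.18), Ccnb2 was low on VEH-Sham 5 at 6.35 (nearest 6.63), and Birc5 was high on VEH-Sham 1 at 6.88 (nearest 6.65).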

How the results depend on the processing

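In VEH-HI against VEH-Sham, 4 genes passed. The count was 9 after quantile normalization (27.3%, beside 12.5% of all genes called higher), 15 after equal array medians (45.5%), and 0 with the array division as a block or among the 11 similar arrays, where the lone VEH-Sham 5 is assumed to vary like the other groups. Leaving out 1 array gave 4 to 7, and the 7 came without VEH-Sham 5 (21.2%, beside 35.8% of all genes called), when Aurka and Cdc20 also passed as higher and Aurkb as lower. In EPO-HI against VEH-Sham, 5 passed, with 9 after quantile normalization (9 higher, 0 lower, against 4 higher and 1 lower; 8.67% of all genes called higher), 21 after equal medians (21 higher, 0 lower), 0 in both fits with the array division, and 4 to 8 without 1 array (8 without VEH-Sham 5, beside 32.9% of all genes called). In EPO-HI against VEH-HI the count was 0 under every alternative run. Equal medians moved the median of all genes to 0.271 in VEH-HI and 0.318 in EPO-HI against VEH-Sham, with 33.6% and 40.6% of all genes called higher. Averaging all probe sets of a gene, dim ones included, ended the calls of Mcm5 and Mcm7. It added Mcm3 in VEH-HI and Aurka in EPO-HI, each as higher than VEH-Sham. The counts were then 3 and 4 of 33, beside 21.4% and 17.4% of all genes called. Calls of Pcna and Cdk4 held under this and the other settings that keep the full sham group or leave out 1 array. No difference reversed its sign among called genes. The causes were not tested. No paired analysis was possible because replicate numbers run from 1 to 15 through the series and no group shares a number with another.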
